A study of Homo sapiens with 8 samples.

Results

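The genes described here encode the subunits of the mitochondrial respiratory chain and ATP synthase. Members were taken by name from the deposited count table. They are the protein-coding genes whose symbols begin with NDUFA, NDUFB, NDUFC, NDUFS or NDUFV and a number, SDHA to SDHD, symbols beginning with UQCR, CYC1, the COX5 to COX8 series, symbols beginning with ATP5, and the mitochondrially encoded MT-ND, MT-CO, MT-CYB and MT-ATP genes. The rule gave 102 of 58735 genes in the table, of which 89 lie on nuclear chromosomes and 13 on mitochondrial DNA (mtDNA). It used names and gene type only, but earlier results of these data were known when it was set. Another 147 pseudogenes and 3 other non-coding genes carried matching names and were left out. COX4I1 and NDUFAB1 are subunits that the names do not catch.

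RNA-seq was performed on A549, an established human lung adenocarcinoma cell line, in 8 libraries. In 4 of them (EV group) the cells carried the empty lentiviral vector, and in the other 4 (KRT19 group) a vector expressing Flag-tagged KRT19, the keratin 19 gene, whose product forms intermediate filaments in epithelia. Per the study's methods, lentivirally transduced lines were selected with puromycin, vector controls included. The comparison asked which transcripts differ when KRT19 is overexpressed. The labels do not say that replicates came from separate cultures, so the p-values measure only the spread between these libraries, which may be technical.

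The respiratory chain passes electrons from NADH through complex I, or from succinate through complex II, to ubiquinone, then through complex III and cytochrome c to complex IV, which reduces oxygen. Complexes I, III and IV pump protons across the inner mitochondrial membrane, and complex V, the ATP synthase, lets them flow back to make ATP. Complexes I, III, IV and V are built from subunits of both genomes, whereas complex II is wholly nuclear. The mtDNA genes are read as long transcripts from both strands and then cut into individual mRNAs, while the nuclear subunit genes are transcribed singly, many of them from promoters bound by NRF1, GABPA or YY1.

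The members were spread unevenly over the complexes. Complex I had 43 of them (36 nuclear and 7 mitochondrial), complex II had 4, complex III had 11 (10 and 1), complex IV had 18 (15 and 3) and complex V had 21 (19 and 2). The remaining 5 were NDUFA4 and its paralogue NDUFA4L2, the ATP synthase inhibitor ATP5IF1, and 2 readthrough genes that join a subunit gene to a neighbour. Enough reads for testing were present for 94 members, all 13 mitochondrial genes and 81 nuclear ones. The 8 that did not pass the filter on low counts were NDUFA7, COX6A2, COX6B2, COX7A1, COX8C, ATP5MGL and both readthrough genes.

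On mtDNA, 3 pairs of neighbouring member genes overlap, so a read in the shared stretch belongs to both. The end of MT-ATP8 (chrM:8366-8572, plus strand) and the start of MT-ATP6 share 46 of the 207 bases of MT-ATP8, at chrM:8527-8572 on GRCh38. The stretch is shown because MT-ATP8 is among the genes whose values depended most on 1 library. The start codon of MT-ATP6 is its first 3 bases, and the stop codon of MT-ATP8 is its last 3:
MT-ATP8 and MT-ATP6 overlap: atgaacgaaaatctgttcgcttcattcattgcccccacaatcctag
MT-ND4L and MT-ND4 share only 7 bases, at chrM:10760-10766, and MT-ATP6 and MT-CO3 share 1 base, at position 9207.

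RefSeq promoter sequences (GRCh38.p14, from 250 bases before to 50 after the annotated start) were found for 69 of the 89 nuclear members. They were searched on both strands for 3 short words, CGCATGCG for NRF1, CCGGAAG for GABPA and other ETS factors, and AAGATGG for YY1. The last 3 letters of the ETS word can be the first 3 of the YY1 word, so 1 stretch can hold both. The NRF1 word was present in 10 of the 69 promoters (14.5%), against 2.19% of all 27305 promoters in the RefSeq set. The ETS word was present in 19 (27.5%, against 10.7% of all) and the YY1 word in 16 (23.2%, against 6.06%), and 36 (52.2%, against 17.4%) held at least 1 of the 3. By complex, at least 1 word was found in 15 of 31 promoters for complex I, 2 of 3 for complex II, 5 of 7 for complex III, 5 of 13 for complex IV and 9 of 13 for complex V. A match is a description of the sequence and not evidence of binding.

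Stretches of 3 of these promoters are printed, up to the first annotated exon base of each gene in GENCODE 29. They are those of ATP5PD, the member with the smallest p in the comparison, and of NDUFB4 and COX6A1, named members of complexes I and IV that hold the NRF1 word. Capitals mark the ETS word (on the opposite strand) in ATP5PD and the NRF1 word in the others. The stretches lie at chr17:75046986-75047099 (minus strand), chr3:120596166-120596308 (plus strand) and chr12:120437883-120438089 (plus strand), and the words begin 101, 158 and 219 bases before the RefSeq start.
ATP5PD: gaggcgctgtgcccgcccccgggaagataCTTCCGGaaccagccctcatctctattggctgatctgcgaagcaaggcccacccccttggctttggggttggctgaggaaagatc
NDUFB4: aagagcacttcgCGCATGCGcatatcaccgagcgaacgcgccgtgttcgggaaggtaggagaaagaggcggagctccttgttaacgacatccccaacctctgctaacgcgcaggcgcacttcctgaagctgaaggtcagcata
COX6A1: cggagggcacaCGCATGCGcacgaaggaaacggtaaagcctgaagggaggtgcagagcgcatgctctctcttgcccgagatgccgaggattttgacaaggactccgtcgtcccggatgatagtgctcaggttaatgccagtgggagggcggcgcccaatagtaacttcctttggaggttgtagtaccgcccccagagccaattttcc

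Library totals lay between 14073065 and 17054364 counts. KRT19 itself had 1 to 5 counts in each EV library and 4353 to 5147 in each KRT19 library, on the side that the labels give. The epithelial keratins KRT8 and KRT18 were abundant, whereas EPCAM had at most 3 counts and CDH1 at most 1 in any library, so these epithelial markers of the labelled line were nearly absent. The label on RNA extraction names retina. Among retinal genes, SAG and RCVRN had 0 counts in all libraries, CRX at most 1 and RLBP1 at most 2, whereas PDE6A had 1 to 6 and NRL 9 to 24 counts in every library. KRT19 replicate 3 stood apart from the rest: it was the lowest of the 8 libraries for 21.6% and the highest for 23.2% of all 14621 tested genes. Values without it are given for several of the results that it moved, and not for all of them.

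The mitochondrial genes were by far the most abundant members. To compare genes with each other, counts were divided by the merged exon length of the gene and scaled to a sum of 1000000 in each library, which is called the per-length level here. Over all 8 libraries, the highest mean per-length level was that of MT-CO2 at 21469, followed by MT-CO1 at 15001, MT-CO3 at 14715 and MT-ATP6 at 13151. These encode the catalytic core of complex IV and the proton channel subunit of complex V. MT-ND4 stood at 10001, the complex III gene MT-CYB at 5532 and the other complex I genes between 3071 (MT-ND5) and 5692 (MT-ND4L). Neighbours in this order were often closer than their spread: in the EV group, MT-CO1 had a per-length level of 15529 ± 1082 and MT-CO3 one of 14624 ± 770 (SD, n = 4).

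The highest nuclear member per length was ATP5F1B, the catalytic beta subunit of ATP synthase, at 2402, below MT-ND5 and above every other nuclear member. COX6B1 (1281), COX8A (999) and NDUFS5 (994) followed on the same per-length scale. MT-ATP8 was the exception among the mitochondrial genes, with a mean per-length level of 188 and rank 44 of the 102 members. Merged exon lengths count every annotated exon of a gene, so nuclear genes with long non-coding exons are placed lower by this scale.

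Where complex IV has alternative forms of a subunit, the form used in most tissues had many more reads than the muscle or testis form. Levels of single genes are given as CPM, counts scaled to a library of 1000000. In the EV group COX6A1 had 47.6 ± 3.93 CPM (SD, n = 4), while the heart and muscle form COX6A2 had 0 counts in all 8 libraries, which allows up to 3 counts in each. COX7A2 had 113 ± 10.4 CPM in the EV group against 0.338 ± 0.172 for the muscle form COX7A1, and the related COX7A2L, which takes part in supercomplex assembly, had 97.5 ± 1.95 CPM. COX6B1 (328 ± 25.9 CPM) stood far above the testis form COX6B2 (0.319 ± 0.164 CPM), and COX8A (142 ± 7.38 CPM) above COX8C (0.0304 ± 0.0608 CPM). The testis form COX7B2 was measurable, at 9.20 ± 0.931 CPM beside 164 ± 9.66 CPM for COX7B. NDUFA4, which sits in complex IV, had 176 ± 4.84 CPM, and its hypoxia-associated paralogue NDUFA4L2 had 0.675 ± 0.147 CPM in the same libraries. All 3 genes for the c ring of ATP synthase were expressed, with 264 ± 14.4 CPM for ATP5MC3, 227 ± 10.5 CPM for ATP5MC2 and 95.8 ± 7.24 CPM for ATP5MC1.

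Several members share sequence or position with other genes, which can withhold or add reads. Among the members, 61 had at least 1 word of 75 bases in common with another annotated gene, 37 had over 10% of their words in common and 7 over 50%. NDUFV2, a core subunit of complex I, was listed at only 0.711 to 1.87 CPM, with 73.3% of its words shared, and the gene antisense to it, NDUFV2-AS1, at 1.57 to 2.47 CPM. NDUFA13 was listed at 0.532 to 1.75 CPM with 26.6% of its words shared with the readthrough gene AC011448.1, and NDUFA7 at 0.0588 to 0.728 CPM with 75.3% of its words shared with other genes, AC010323.1 among them. These 3 low values are therefore uncertain. For the mitochondrial genes, 394 pseudogenes of mtDNA origin together held 0.0555% to 0.0766% of the count of the 13 genes in each library.

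Summed over the genes of each genome, the groups overlapped. The 13 mitochondrial genes took 2.81%, 2.61%, 2.60% and 2.83% of all counts in EV replicates 1 to 4, and 2.59%, 2.58%, 2.99% and 2.97% in KRT19 replicates 1 to 4. The KRT19 group held both the lowest and the highest of the 8 shares. The EV mean was 2.71% ± 0.124 and the KRT19 mean 2.78% ± 0.230 (SD, n = 4 per group), which became 2.71% ± 0.222 without KRT19 replicate 3 (n = 3). In bulk RNA, fewer cells with a given level and less RNA per cell cannot be told apart.

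The 89 nuclear members took 1.01%, 1.07%, 1.10% and 1.05% of counts in the EV libraries and 1.09%, 1.04%, 0.995% and 1.07% in the KRT19 libraries. The means were 1.06% ± 0.0379 and 1.05% ± 0.0405 (SD, n = 4 per group), a difference smaller than either spread, and the KRT19 mean was 1.06% ± 0.0255 without KRT19 replicate 3 (n = 3). The ratio of mitochondrial to nuclear counts was 2.78, 2.44, 2.37 and 2.71 in the EV group and 2.38, 2.48, 3.01 and 2.78 in the KRT19 group. Only KRT19 replicate 3 lay outside the range of the EV libraries in this ratio, above it. The mean ratio was 2.57 ± 0.203 in the EV and 2.66 ± 0.286 in the KRT19 group (SD, n = 4), and 2.55 ± 0.207 in the latter without that library (n = 3).

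**Figure D1:**
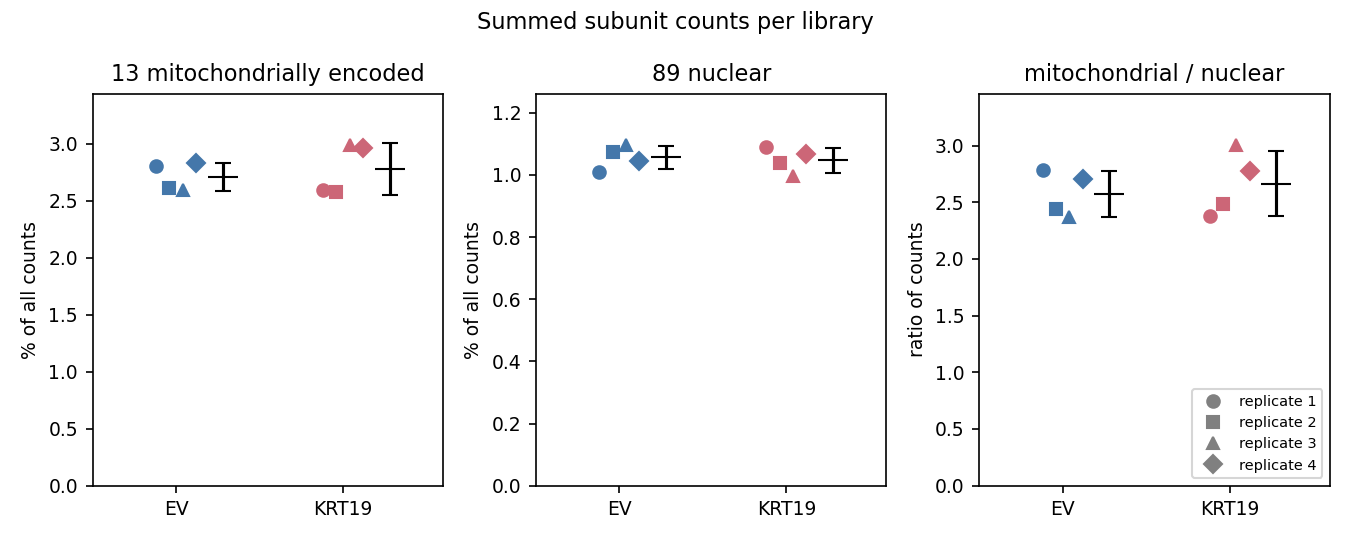
Counts of the 13 mitochondrially encoded and 89 nuclear subunit genes as a percentage of all counts in each library, and the ratio of these 2 counts (y axes, from 0), for the EV and KRT19 groups (x axis). Each symbol is 1 library and the black bar gives the mean with its SD. The groups overlap in all 3 panels, and the highest ratio, 3.01, is that of KRT19 replicate 3.

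No member differed between the groups at an adjusted p under 0.05 (quasi-likelihood test of edgeR), while 1 did with limma-voom (ATP5PD) and 1 with a looser filter on low counts (MT-ND6). KRT19 was the only gene of the 14621 tested that passed in the edgeR test as reported (0.00684%). At an unadjusted p under 0.05, 2 members were called, UQCRB higher and ATP5PD lower in the KRT19 group, beside 5.41% of all tested genes (2.85% higher and 2.56% lower). The members called higher numbered 0 to 7 with single libraries left out, beside 2.18% to 4.87% of all genes. They numbered 0 under a replicate block (1.56% of all genes) or upper-quartile normalization (2.2%). The members called lower numbered 1 to 3 with single libraries left out, beside 2.01% to 3.41% of all genes. They numbered 6 when the GC and length correction was joined to the block (3% of all genes). The groups did not overlap in CPM for 3 members, all lower in the KRT19 group (ATP5PD, SDHC and ATP5MG), beside 1.81% of all genes lower and 1.63% higher. Counted in either direction, 3.44% of all genes did not overlap. In the fit as reported, 2 and 3 of 94 members were thus below or near the background. With the looser filter, and without KRT19 replicate 2, 7 members were called higher, above the background of 2.94% and 2.87% of all genes.

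The 2 genomes had medians on opposite sides of 0. Of the 81 nuclear members, 29 had a positive and 52 a negative log2 fold change (KRT19 over EV), with a median of -0.01. Of the 13 mitochondrial genes, 11 had a positive value and 2 (MT-CO1 and MT-ND4L) a negative one, with a median of 0.08. Over all tested genes 52.2% were positive and the median was 0.01. The median of the members in single libraries varied with an SD of 0.06 for the nuclear and 0.10 for the mitochondrial set on the log2 scale, so neither median exceeded the spread between libraries. Without KRT19 replicate 3, the mitochondrial median was 0.01, with 8 genes positive and 5 negative, and the nuclear median was also 0.01, with 49 positive and 32 negative. With limma-voom on all 8 libraries both medians were positive, at 0.01 for 46 positive and 35 negative nuclear members and 0.04 for the mitochondrial genes, and the GC and length correction gave 37 positive and 44 negative nuclear members. Without KRT19 replicate 3 the medians of complexes III, IV and V were also positive, at 0.03, 0.01 and 0.01, and that of complex II was -0.07. The nuclear median was likewise 0.01 without EV replicate 3 (50 positive and 31 negative), and -0.04 without EV replicate 1 (17 and 64) or KRT19 replicate 1 (21 and 60). The mitochondrial median reached 0.14 without KRT19 replicate 2, and 8 mitochondrial genes were positive without EV replicate 2 or KRT19 replicate 4.

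**Figure D2:**
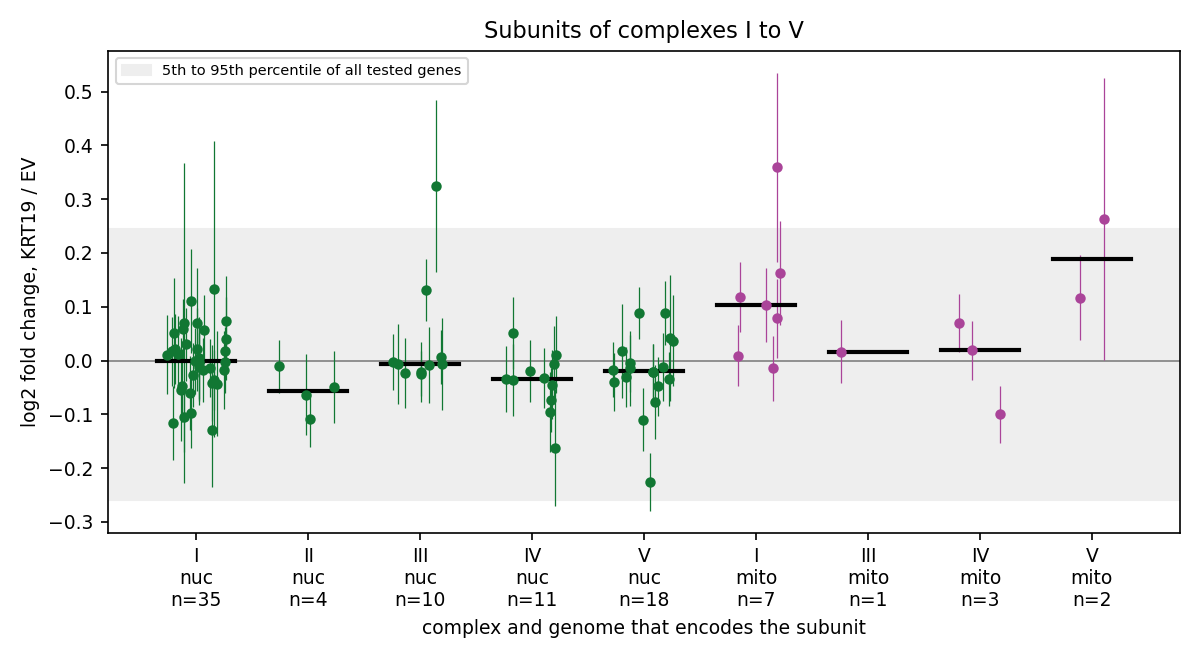
Log2 fold change (KRT19 over EV, y axis) of each tested subunit of complexes I to V, separated by the genome that encodes it (x axis); points are genes with their standard errors, black bars are medians, and the grey band spans the 5th to 95th percentile of all tested genes (-0.26 to 0.24). All but 3 points lie inside the band, and those 3 (MT-ND6, MT-ATP8 and the low-count gene UQCRHL) lie above it.

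The mitochondrial genes differed between libraries within the KRT19 group more than between the groups. In KRT19 replicates 1 and 2, all 13 lay below their mean over the 8 libraries, with median log2 deviations of -0.06 and -0.11. In KRT19 replicates 3 and 4 the median deviations were 0.12 and 0.14. After removal of trends with GC content and gene length, these 4 medians were -0.06, -0.11, 0.05 and 0.15, and 2 of the 13 genes in KRT19 replicate 1 lay above their mean. KRT19 replicate 3 was the highest of the 8 libraries for 6 of the 13 genes and replicate 4 for 5.

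MT-ND6, a complex I gene and the only one of the 13 on the minus strand (chrM:14149-14673), had 477, 451, 474 and 499 CPM in the EV libraries and 473, 438, 999 and 527 in the KRT19 libraries. Only KRT19 replicate 3 was high, at 2.08 times the mean of the other KRT19 libraries, and the rest of the KRT19 group overlapped the EV group. The log2 fold change was 0.36 ± 0.18 (SE; edgeR adjusted p = 0.906), and 0.01 without KRT19 replicate 3. With a looser filter on low counts the value was again 0.36, with an edgeR adjusted p of 1.28e-08. The library kit named in the labels does not mark strand, so reads antisense to MT-ND6 cannot be told from its own.

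MT-ATP8, a small subunit of the membrane part of ATP synthase, had 11.98, 10.2, 10.0 and 7.47 CPM in the EV group and 8.45, 7.96, 22.2 and 8.34 in the KRT19 group. KRT19 replicate 3 was again the highest, at 2.69 times the mean of the other KRT19 libraries, and those others lay within the EV range. Its log2 fold change of 0.26 ± 0.26 (SE) became -0.26 without that library. MT-ATP6, which overlaps it in the stretch printed above, had 2315 to 2444 CPM in the EV group and 2283, 2270, 3148 and 2668 CPM in the KRT19 group. The KRT19 mean of MT-ATP6 was 2592 CPM, and 2407 CPM without KRT19 replicate 3, against an EV mean of 2391 CPM. Its log2 fold change of 0.12 ran from 0.01 to 0.18 with single libraries left out.

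The complex I genes MT-ND2 and MT-ND4 followed the same libraries. MT-ND2 had 1270 to 1436 CPM in the EV libraries and 1239, 1304, 1897 and 1580 CPM in KRT19 replicates 1 to 4. MT-ND4 had 3501 to 3870 CPM against 3624, 3624, 4503 and 4214 CPM. Their log2 fold changes were 0.16 ± 0.10 and 0.12 ± 0.07 (SE), and 0.03 and 0.06 without KRT19 replicate 3. MT-ND1 (0.08) and MT-ND3 (0.10) lay between these and MT-ND5 (0.01) and MT-ND4L (-0.01), all on the log2 scale.

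Of the complex IV genes, MT-CO1, which holds the oxygen-binding centre, differed in the other direction. It had 7105, 6458, 6269 and 6808 CPM in the EV group and 6186, 6187, 5765 and 6718 CPM in the KRT19 group, with overlapping groups and the lowest value in KRT19 replicate 3. Its log2 fold change was -0.10 ± 0.05 (SE; edgeR adjusted p = 0.906). Leaving out single libraries gave -0.14 to -0.07. The KRT19 mean was 6214 CPM, and 6364 CPM without KRT19 replicate 3, against an EV mean of 6660 CPM. MT-CO1 made up 19.5% of the mitochondrial counts in KRT19 replicate 3 and 22.5% to 25.5% in the other libraries. MT-CO2 (0.07), MT-CO3 (0.02) and the complex III gene MT-CYB (0.02) had small positive log2 fold changes.

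**Figure D3:**
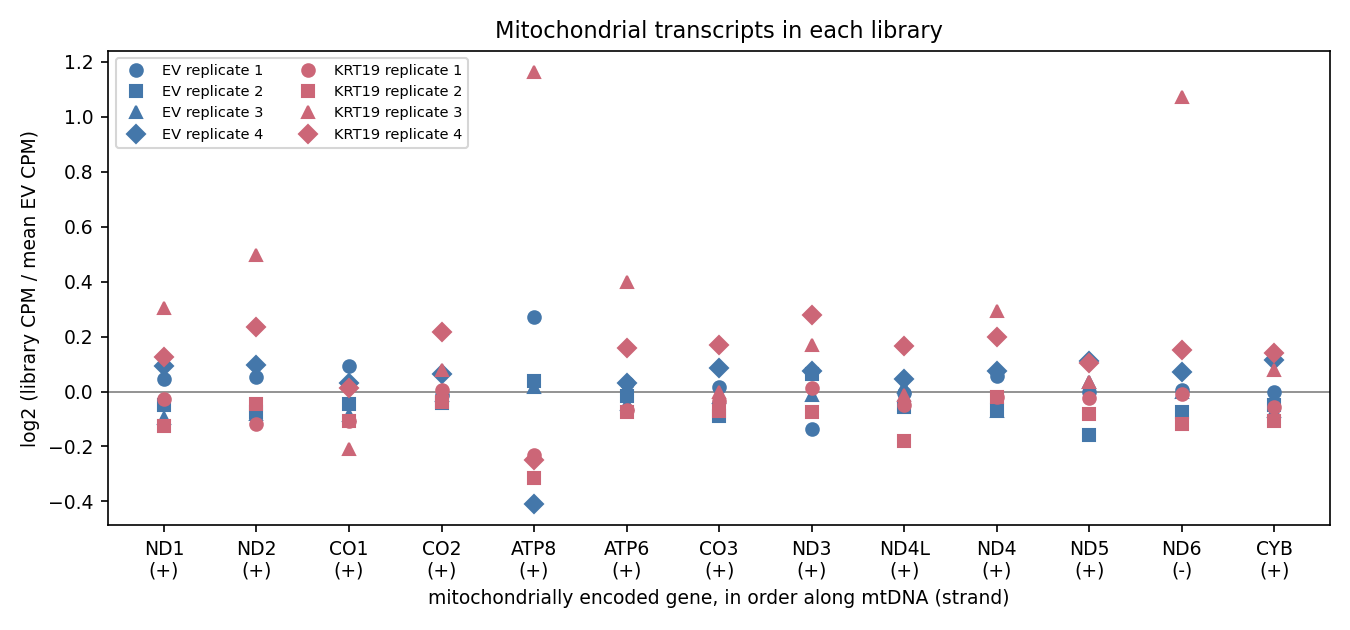
Log2 ratio of each library's CPM to the mean EV CPM (y axis) for the 13 mitochondrially encoded genes in their order along mtDNA, with the strand in brackets (x axis); each symbol is 1 library. KRT19 replicate 3 stands above the rest at MT-ATP8 (1.16) and at MT-ND6 (1.07) and below them at MT-CO1, and the other libraries of both groups mostly intermingle.

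The nuclear members moved by library more than by group. EV replicate 1 and KRT19 replicate 3 were each the lowest of the 8 libraries for 26 of the 81 tested nuclear members (32.1%), where the same libraries were lowest for 12.4% and 21.6% of all genes. KRT19 replicate 1 was the highest for 26 (32.1%) and EV replicate 3 for 22 (27.2%), where they were highest for 13.6% and 15.3% of all genes. The median log2 deviation from the mean of the 8 libraries was -0.07, 0.04, 0.07 and 0.00 in EV replicates 1 to 4 and 0.07, -0.03, -0.07 and 0.02 in KRT19 replicates 1 to 4. Each group thus held a library near the top and one near the bottom. After removal of trends with GC content and gene length, these medians were -0.05, 0.03, 0.06 and 0.00 in the EV group and 0.05, -0.02, -0.06 and 0.03 in the KRT19 group.

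**Figure D4:**
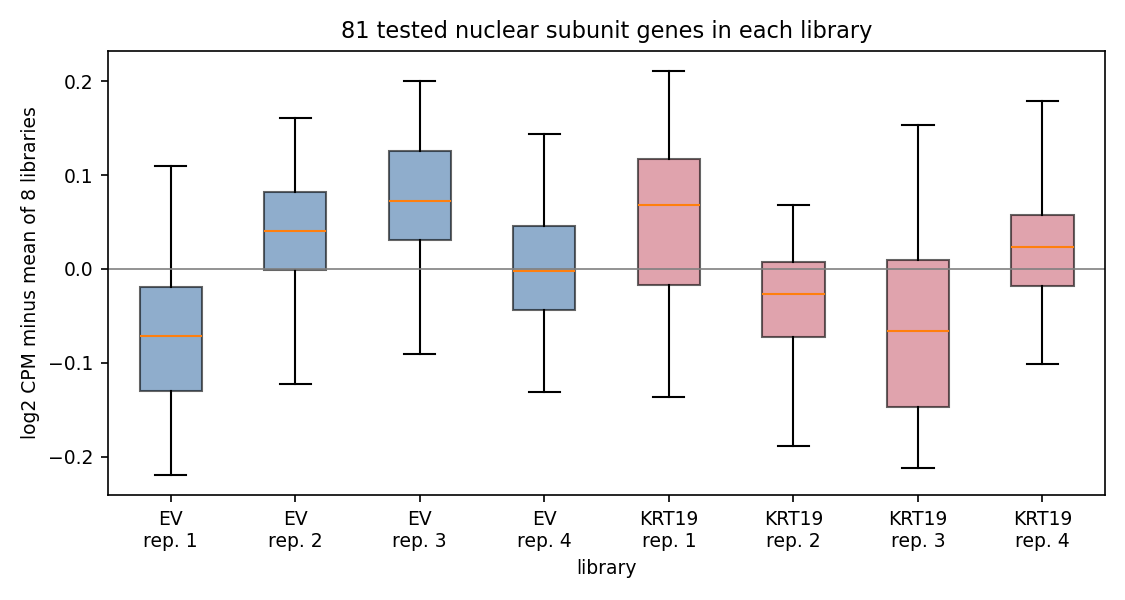
Log2 CPM of the 81 tested nuclear subunit genes minus each gene's mean over the 8 libraries (y axis), by library (x axis); boxes span the quartiles with the median as a line, and whiskers reach the 5th and 95th percentile of the genes. EV replicate 1 (-0.07) and KRT19 replicate 3 (-0.07) are the lowest and EV replicate 3 (0.07) and KRT19 replicate 1 (0.07) the highest, with both groups at both ends.

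The nuclear subunits of complex I, which oxidises NADH, were evenly split, with 17 of 35 tested members positive, 18 negative and a median log2 fold change of 0.00. The 7 core subunits, which carry the flavin and iron-sulphur clusters, had a median of 0.02 (5 positive) and the 28 accessory subunits one of 0.00 (12 positive). The smallest p in each direction belonged to the accessory subunits NDUFA5, with 47.8 ± 4.13 CPM in the EV and 51.5 ± 8.74 CPM in the KRT19 group, and NDUFB4, with 66.7 ± 3.96 and 61.6 ± 5.77 CPM (SD, n = 4). NDUFA5 was at 63.5 CPM in KRT19 replicate 3 and between 42.1 and 51.5 CPM in the other 7 libraries, and its log2 fold change of 0.11 became -0.01 without that library. The log2 fold change of NDUFB4, -0.12, ran from -0.18 to -0.07 with single libraries left out. NDUFB9 (0.06) and NDUFB2 (-0.10), also accessory subunits, came next by p in each direction. For NDUFB2, 78.1% of its words were shared with another gene. None of the 35 tested nuclear complex I members passed an unadjusted p of 0.05.

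All 4 subunits of complex II, succinate dehydrogenase, had negative log2 fold changes, with a median of -0.06 and an SD of the median between libraries of 0.02. SDHC was the only one of them that stayed negative under every alternative run, since SDHA, SDHB and SDHD turned slightly positive with single libraries left out, and SDHB also after the GC and length correction. SDHC, a membrane anchor (chr1:161314257-161375340), had 129, 122, 121 and 124 CPM in the EV group and 112, 120, 119 and 108 in the KRT19 group. The groups did not overlap, but the gap between them was under 1 CPM, from 120.3 to 121.0. The log2 fold change of SDHC was -0.11 ± 0.05 (SE; edgeR adjusted p = 0.906). The other anchor SDHD (-0.06 ± 0.08), the flavoprotein SDHA (-0.05 ± 0.07) and the iron-sulphur subunit SDHB (-0.01 ± 0.05) differed by less than their standard errors. Summed over the 4 genes, complex II had 466 ± 8.57 CPM in the EV group and 449 ± 7.78 CPM in the KRT19 group (SD, n = 4), with ranges of 459 to 479 and 442 to 460 that overlapped by less than 1 CPM.

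The 10 nuclear members of complex III, the cytochrome bc1 complex, had a median log2 fold change of -0.01, with 3 positive and 7 negative. UQCRB, which contributes to the ubiquinone-binding region, had 121, 143, 135 and 134 CPM in the EV group and 144, 136, 155 and 148 CPM in the KRT19 group. The groups overlapped through EV replicate 2 and KRT19 replicate 2. Its log2 fold change was 0.13 ± 0.06 (SE; edgeR adjusted p = 0.906), and leaving out single libraries gave 0.09 to 0.17. The unadjusted call of UQCRB was lost in 9 of the 18 alternatives, 5 of which left out a library (EV replicate 1, 3 or 4, or KRT19 replicate 3 or 4). The Rieske iron-sulphur protein UQCRFS1 was among the steadiest members, at 358 to 364 CPM in the EV and 351 to 361 CPM in the KRT19 libraries. UQCRHL, an intronless copy of the hinge protein gene UQCRH, had the highest nuclear log2 fold change, 0.33 ± 0.16 (SE; edgeR adjusted p = 0.906), from 2.86 to 4.50 CPM in the EV and 3.98 to 5.36 CPM in the KRT19 group. UQCRH itself, at 211 to 251 and 218 to 239 CPM, had a log2 fold change of -0.02, and reads may be split between the copies.

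For complex IV, cytochrome c oxidase, 2 of the 11 tested nuclear subunits were positive and 9 negative, with a median of -0.03, within the SD of 0.06 of the complex median between libraries. With its mitochondrial genes included, the median of the complex ran from -0.06 to 0.01 with single libraries left out. It was positive without KRT19 replicate 3. COX6A1 had 41.7, 49.2, 50.1 and 49.4 CPM in the EV group and 49.4, 45.8, 39.8 and 43.5 CPM in the KRT19 group, a log2 fold change of -0.10 ± 0.07 (SE). EV replicate 1 and KRT19 replicate 3 were the low libraries, as for the nuclear members at large. Leaving out single libraries gave -0.15 to -0.04 for COX6A1. COX7B2 (-0.16 ± 0.11), COX6B1 (0.05 ± 0.07) and COX7C (0.01 ± 0.07) were the others with the smallest p in each direction. COX4I1, the subunit outside the name rule that is needed for assembly of the complex, had 423 ± 33.7 CPM in the EV and 420 ± 35.9 CPM in the KRT19 group (SD, n = 4).

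Complex V held the member with the smallest p. ATP5PD encodes subunit d of the peripheral stalk, the arm that keeps the catalytic head of ATP synthase from turning, and lies at chr17:75038863-75046985 on the minus strand. Its CPM values were 112, 119, 105 and 115 in the EV group and 94.7, 96.9, 99.8 and 93.8 in the KRT19 group. All KRT19 libraries lay below all EV libraries. The log2 fold change was -0.23 ± 0.05 (SE; edgeR adjusted p = 0.506), a KRT19 level 0.855 times that of the EV group, and ATP5PD ranked 17 of 14621 genes by p. Leaving out single libraries gave -0.26 to -0.20. With limma-voom the value was -0.26 with an adjusted p of 0.0298. KCTD2, which overlaps ATP5PD on the opposite strand, had 42.3 ± 0.935 CPM in the EV group and 41.3 ± 2.32 CPM in the KRT19 group, a log2 fold change of -0.04 ± 0.06 (SE).

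The other peripheral stalk subunits had smaller log2 fold changes, of either sign. ATP5PB had 185, 192, 178 and 174 CPM in the EV group and 192, 196, 189 and 199 CPM in the KRT19 group. This was a log2 fold change of 0.09 ± 0.05 (SE; edgeR adjusted p = 0.906) with overlapping groups, opposite in sign to ATP5PD. ATP5PF (-0.04 ± 0.05) and ATP5PO (-0.08 ± 0.07) lay between them. Whether the stalk subunits differ from each other in their response was not tested.

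ATP5MG, a small membrane subunit at the interface between ATP synthase dimers (chr11:118401154-118431496), had 36.4, 34.9, 33.8 and 34.7 CPM in the EV group and 32.1, 32.1, 32.2 and 33.2 CPM in the KRT19 group. The groups did not overlap, and the log2 fold change was -0.11 ± 0.06 (SE; edgeR adjusted p = 0.906). The 5 subunits of the F1 head and central stalk were near 0, with 4 negative values and 1 positive one, that of the epsilon subunit ATP5F1E (0.09 ± 0.06). With single libraries left out, ATP5F1E ran from 0.03 to 0.13. The 3 c-ring genes lay between -0.03 and -0.01. ATP5IF1, which inhibits the ATP synthase when it runs in reverse, had 67.5, 76.7, 81.5 and 77.6 CPM in the EV group and 80.2, 78.6, 74.0 and 76.1 CPM in the KRT19 group, which overlapped. Over the 18 tested nuclear members of complex V the median was -0.02, with 5 positive and 13 negative.

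**Figure D5:**
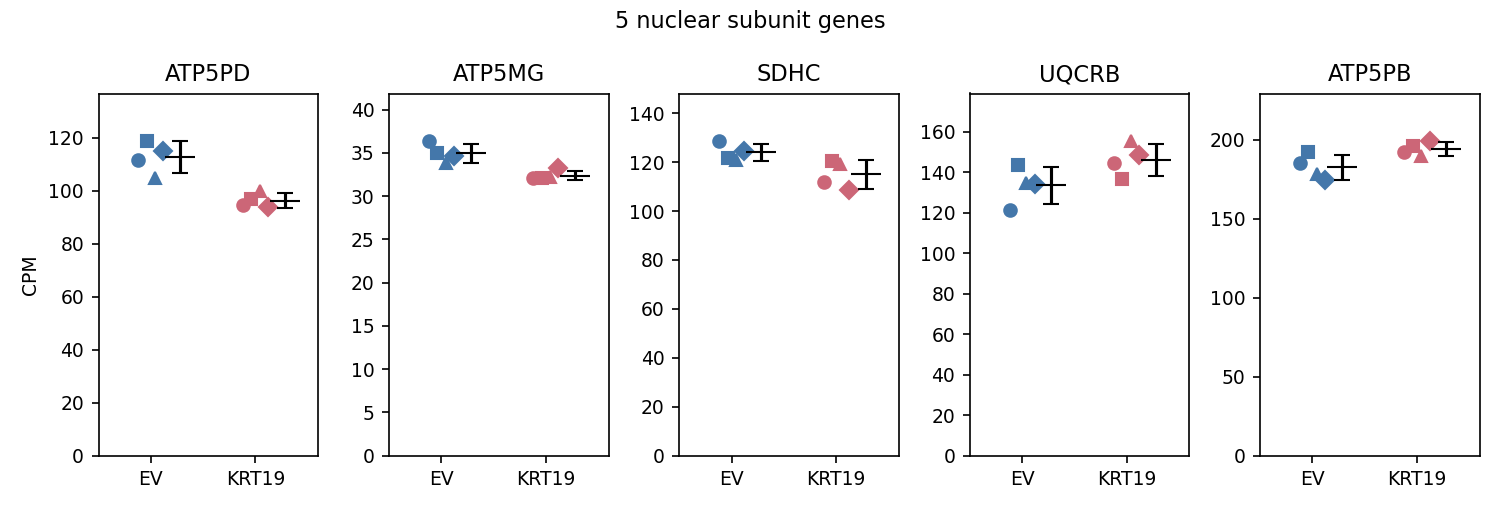
CPM (y axes, from 0) of 5 nuclear subunit genes in the EV and KRT19 groups (x axis); each symbol is 1 library, with the replicates coded by shape (1 circle, 2 square, 3 triangle, 4 diamond), and the black bar gives the mean with its SD. The groups separate for ATP5PD, ATP5MG and SDHC, with KRT19 lower, and overlap for UQCRB and ATP5PB.

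Genes that build or serve the chain were also examined in lists chosen by function. Among 51 tested assembly factors, 30 had positive and 21 negative log2 fold changes with a median of 0.01. At an unadjusted p under 0.05, 2 of them were lower, both complex IV factors: COX14 (-0.16 ± 0.07; 30.4 against 27.2 CPM) and PET117, which had few reads (-0.76 ± 0.27; 1.22 against 0.715 CPM). At that threshold 2.56% of all genes were lower. Among 16 genes for mtDNA transcription and replication, 13 were positive and the median was 0.06, with the primase PRIMPOL called higher (0.18 ± 0.08). TFAM, which packages mtDNA and starts its transcription, had 88.4 ± 7.73 CPM in the EV and 96.2 ± 15.6 CPM in the KRT19 group (SD, n = 4). KRT19 replicate 3 was the highest for TFAM, at 118 CPM, and without it the KRT19 mean was 88.9 CPM. Among 18 genes for processing of mitochondrial RNA, 12 were positive with a median of 0.06. Of these TRMT10C, a subunit of mitochondrial RNase P (0.25 ± 0.10), and LRPPRC, which stabilises mitochondrial mRNAs (0.13 ± 0.06), were called higher. Both were highest in KRT19 replicate 3, and their log2 fold changes were 0.16 and 0.07 without it.

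MTIF2, the initiation factor of mitochondrial translation, was the only one of 11 translation factors called, at 0.18 ± 0.07. None of these genes passed the adjusted threshold, and 2.85% of all genes were called higher at the same unadjusted threshold. The 9 transcriptional regulators of the nuclear members gave no call, with log2 fold changes of 0.02 for NRF1, 0.12 for GABPA and 0.00 for YY1. GABPA was highest in KRT19 replicate 3 (58.0 CPM), and its log2 fold change was 0.00 without that library. The 14 tested genes of the citric acid cycle were split into 7 positive and 7 negative, with no call and a median of 0.00. Without KRT19 replicate 3 they were 12 positive and 2 negative, with a median of 0.03. Among the tested nuclear members, the median log2 fold change was -0.02 for the 35 with at least 1 of the 3 promoter words and -0.01 for the 29 with none.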

How the data were processed

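Gene-level read counts of 8 libraries, not normalized, were deposited in a single table. The submitters' processing notes name Bowtie 0.12.2, featureCounts 1.5.0-p3, DESeq2 and hg38; how strand and reads matching several genes were handled is not given in the sources used here. Coordinates are those of the table and matched GENCODE 29 for all 102 members. The members and gene lists were chosen with earlier results of these data known, and the subgroups of complexes after values were seen.

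The count model was that of edgeR 4.0.16, run in R 4.3.3. The filter filterByExpr kept 14621 genes. Library sizes were scaled by TMM, and the groups were compared over all 8 libraries with glmQLFit and glmQLFTest, with two-sided p-values adjusted by the Benjamini-Hochberg method over all tested genes (threshold 0.05). CPM used TMM-scaled library sizes and log2 CPM a prior count of 2. Single members were named by rule: the 13 mitochondrial genes, the 4 complex II subunits, and the nuclear members of complexes I, III, IV and V with the 2 smallest unadjusted p in each direction. Alternative subunit forms were named with levels, and in other lists genes at an unadjusted p under 0.05, at most 2 per list and direction. Others were named after their values were seen. The 18 alternatives covered scaling, filters, limma 3.58.1, DESeq2 1.42.0, GC content and length, a replicate block and each library left out. The fit was tested on simulated data. Floors of 3 counts cover counting error only.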

Additional observations from a re-analysis of the deposited data

Results flagged for a closer look

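For the 33 named members, the summed shares of both genomes and their ratio, each in 2 groups of 4 libraries, the highest or lowest library stood far from the other 3 (a gap, as a share of the group's whole range, above Dixon's 95% critical value) in 4 of 72 groups tested, where chance alone would give about 3.6. MT-ND6 in KRT19 replicate 3 had a gap of 0.841 of the range (999 CPM beside 438 to 527 CPM). MT-ATP8 in the same library had a gap of 0.966 (22.2 CPM beside 7.96 to 8.45 CPM). COX6A1 in EV replicate 1 had a gap of 0.899 (41.7 CPM beside 49.2 to 50.1 CPM). ATP5MG in KRT19 replicate 4 had a gap of 0.870 (33.2 CPM beside 32.1 to 32.2 CPM), and that library still lay below all EV libraries. The causes were not tested.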

How the results depend on the processing

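Over the 18 alternatives, the nuclear median ran from -0.04 to 0.01 and the mitochondrial one from 0.01 to 0.14. Their difference, 0.09 as reported, ran from -0.01 to 0.15. These and the medians of the 5 complexes stayed within 1 SD of their values as reported. The SD used was that of the median between libraries, 0.06 (nuclear), 0.10 (mitochondrial) and 0.13 (difference). It exceeded these 2 medians and their difference, so staying within it does not show that they were stable. Members past the adjusted threshold numbered 0, and 1 with limma-voom (ATP5PD, -0.26) and 1 with the looser filter (MT-ND6, 0.36, adjusted p = 1.28e-08), which tested 30250 genes. The cause of either was not tested. Members higher at an unadjusted p under 0.05 numbered 1 (2.85% of all genes). They numbered 0 under the replicate block (1.56% of all genes) and with upper-quartile normalization (2.2%), and 7 under the looser filter (2.94%). With limma-voom there were 3 (4.49%), and after the GC and length correction 2 (4.65%). With single libraries left out they numbered 0 to 7. There were 6 and 7 without KRT19 replicates 1 and 2, beside 4.87% and 2.87% of all genes. Members lower numbered 1 (2.56% of all genes), with 5 after the GC and length correction (3.72%) and 6 when it was joined to the replicate block (3%). There were 2 with limma-voom (4.66%), the looser filter (2.21%), the stricter filter (2.59%) or upper-quartile normalization (3.24%). With single libraries left out they numbered 1 to 3, with 3 without KRT19 replicate 2 or 3 (2.49% and 2.86%).

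Same-numbered libraries did not deviate together (residual r of -0.11, -0.02, -0.16 and 0.06), so the numbers were not taken as pairs. The replicate block moved the count of all genes at an unadjusted p under 0.05 from 791 to 451. That count was 1559 with the looser filter, 1337 with limma-voom, 1224 after the GC and length correction and 1228 without KRT19 replicate 1. All genes past the adjusted threshold numbered 5 with the DESeq2 Wald test, 8 with limma-voom, 71 with the looser filter, 6 after the GC and length correction, 4 when it was joined to the block, and 3 and 5 without EV replicate 1 and KRT19 replicate 3.

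Some small log2 fold changes changed sign: COX7C (0.01) to -0.032 after the GC and length correction, -0.036 with the block added and -0.00044 with upper-quartile normalization, SDHB (-0.01) to 0.0037 and 0.0042 under the first 2 of these, MT-ND5 (0.01) to -0.0027 with upper-quartile normalization, and MT-ATP8 (0.26) to -0.036, MT-ND4L (-0.01) to 0.016 and UQCRH (-0.02) to 0.0092 with limma-voom. With single libraries left out, sign changes occurred in these ranges: COX7C -0.052 to 0.063 (without EV 1, KRT19 1), MT-ATP8 -0.26 to 0.40 (without KRT19 3), MT-CO3 -0.035 to 0.048 (without EV 2, KRT19 4), MT-CYB -0.027 to 0.057 (without EV 2, EV 3, KRT19 3, KRT19 4), MT-ND1 -0.0057 to 0.14 (without KRT19 3), MT-ND4L -0.079 to 0.037 (without EV 4, KRT19 2), MT-ND5 -0.041 to 0.048 (without EV 2, KRT19 4), NDUFA5 -0.0086 to 0.19 (without KRT19 3), SDHA -0.095 to 0.0074 (without EV 3, KRT19 3), SDHB -0.030 to 0.0087 (without EV 2, EV 3), SDHD -0.13 to 0.0024 (without KRT19 1), UQCRH -0.065 to 0.016 (without EV 3, KRT19 3). UQCRHL was not tested under the stricter filter. Depth limits the members with few reads, 8 of which were not tested.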
